A study of Mus musculus with 6 samples.

Results

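The mitochondrial genome (mtDNA) encodes a small set of core subunits of the respiratory chain, and the mRNAs of 10 of them were followed here in induced regulatory T cells with and without deletion of Dlst. They were the table entries with the symbols mt-Nd1, mt-Nd2, mt-Nd3, mt-Nd4, mt-Nd5, mt-Cytb, mt-Co1, mt-Co2, mt-Co3 and mt-Atp6, 10 of the 21899 genes listed and 10 of the 13 mtDNA-encoded genes listed. All 10 passed the filter on low counts. Bulk mRNA was sequenced from 3 samples of Dlst-Treg iKO mice (KO) and 3 samples of iWT mice (WT). In both groups splenic CD4+ T cells were kept for 2 days under Treg-polarising conditions with 4-hydroxytamoxifen, the drug that activates inducible Cre. Cells carrying CD4, the FoxP3-GFP reporter and the tdTomato reporter were then sorted. The sources used here do not give strain, age, the Cre driver or whether the samples came from separate animals. KO replicate 1, which alone held more than traces of Y-linked RNA, was not drawn from the same cells as KO replicates 2 and 3. The spread on which each p-value rests may otherwise be technical.

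The product of Dlst is the succinyltransferase of the 2-oxoglutarate dehydrogenase complex, an enzyme of the TCA cycle whose NADH gives electrons to the respiratory chain. The mtDNA-encoded subunits form the membrane cores of complexes I, III, IV and V, and nuclear genes encode the remaining subunits and all of complex II. The mtDNA is transcribed as long polycistronic RNAs from both strands, mRNAs are released when the tRNAs between them are cut out, and the mRNAs are polyadenylated and kept stable by nuclear-encoded factors. The level of each mRNA therefore depends on transcription, on cutting and on its own stability.

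All 10 genes lie on the plus strand of MT in GENCODE M21 (GRCm38), each without an intron, between base 2751, the start of mt-Nd1, and base 15288, the end of mt-Cytb. Their annotated lengths run from 348 bases for mt-Nd3 to 1824 bases for mt-Nd5. The last 30 bases of the coding sequences that the results turn on are shown because they end in different ways, with the last codon or part of a codon in capitals.
mt-Nd5: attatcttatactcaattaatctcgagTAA
mt-Nd3: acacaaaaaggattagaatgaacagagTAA
mt-Co3: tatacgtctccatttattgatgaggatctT
mt-Nd4: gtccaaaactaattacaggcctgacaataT
mt-Cytb: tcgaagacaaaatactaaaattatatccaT
The sequences come from the GENCODE M21 transcripts. mt-Nd3 and mt-Nd5 carry a complete stop codon. mt-Co3, mt-Nd4 and mt-Cytb end in a single T, and polyadenylation completes such a stop codon in mammalian mitochondria. The positions were mt-Nd5 from 11742 to 13565, mt-Nd3 from 9459 to 9806, mt-Co3 from 8607 to 9390, mt-Nd4 from 10167 to 11544 and mt-Cytb from 14145 to 15288. The other 5 were mt-Nd1 from 2751 to 3707, mt-Nd2 from 3914 to 4951, mt-Co1 from 5328 to 6872, mt-Co2 from 7013 to 7696 and mt-Atp6 from 7927 to 8607.

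Libraries held 33590510 to 49772670 estimated counts in KO and 35647816 to 47526481 in WT. Dlst, the targeted gene, had 125, 129 and 129 CPM (counts scaled to the TMM-normalised library total) in KO replicates 1 to 3, against 161, 149 and 149 CPM in WT replicates 1 to 3. Its log2 fold change was -0.26 (SE 0.05), with an edgeR adjusted p of 0.0894 and a DESeq2 adjusted p of 0.00182. The decrease was small and its call depended on the method, so the deletion rests on the labels and its extent cannot be read from this RNA level. Treg genes were present in both groups, with Foxp3 at 207 to 231 CPM in KO and 154 to 202 CPM in WT, and Il2ra at 1826 to 2240 CPM in KO and 1923 to 2361 CPM in WT. Of 7 T and Treg cell markers, 1 was called, Ikzf2, as lower in KO (log2 fold change -0.57, SE 0.09, edgeR adjusted p = 0.0366), as 0.219% of genes were. Cd4 was below WT in every KO library (-0.19, SE 0.05, adjusted p = 0.151) and Foxp3 above WT (0.26, SE 0.11, adjusted p = 0.305). The groups did not overlap for 3 of the 7 and for 22.8% of tested genes. The replicates numbered 1 stood apart from the others of their group. The biological coefficient of variation was 14.3 and 12.5% between KO replicate 1 and KO replicates 2 and 3, and 2.97% between those 2. It was 14.4 and 14.8% between WT replicate 1 and WT replicates 2 and 3, and 7.12% between those 2. In KO replicate 1 the Y-linked gene Ddx3y was at 80.7 CPM, and it was at most 0.0257 CPM elsewhere. Summed over 4 Y-linked genes, KO replicate 1 had 253 CPM and the other libraries at most 1.25 CPM. KO replicate 1 thus held male cells, and the other KO libraries and all WT libraries had at most traces of them. In WT replicate 1 the sum of 5 B cell markers was 91.4 CPM, beside 28.2 to 29.8 CPM in KO and 14.0 and 29.1 CPM in the other WT libraries. The sum of 2 CD8 T cell markers was 86.2 to 101 CPM in KO and 42.8 to 77.1 CPM in WT. Summed over 7 neutrophil markers, KO replicates 1 to 3 had 289, 72.8 and 66.6 CPM and WT libraries 4.78 to 30.5 CPM. All 7 had every KO library above every WT library, as 11.9% of all tested genes did, and 1 of them, Mmp8, passed the edgeR test as higher in KO, as 0.454% of genes did. Its log2 fold change was 3.12, and 2.72 to 3.47 when 1 library was left out, where the call was lost in each case. Summed over 7 monocyte and macrophage markers, KO replicate 1 had 347 CPM, the lowest KO library 89.2 CPM and WT libraries 19.0 to 27.4 CPM, and all 5 tested had every KO library above every WT library. The 1 that passed, Mrc1, had a log2 fold change of 2.37, and 2.03 to 2.55 when 1 library was left out, again without a call. C1qa and C1qb were too low to be tested, no marker of either list was at 0 in all 6 libraries, and Retnlg was at 0 in WT replicates 2 and 3. Of 3 dendritic cell markers, 1 was called, Itgax, as higher in KO (edgeR adjusted p = 0.0472). Itgax had 4.4 to 8.2 CPM in KO and 1.76 to 2.11 CPM in WT. Summed over the 3 markers, KO replicates 1 to 3 had 10.3, 6.72 and 6.51 CPM and WT libraries 3.23 to 4.11 CPM. Of 3 erythroid markers, 1 was tested and was not called. The 2 NK cell markers were too low to be tested. For these reasons each comparison is given by library.

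The mRNAs of the respiratory chain encoded by mtDNA took a larger share of KO replicate 1 than of any other library. The 10 mRNAs held 2.65, 1.45 and 1.62% of counts in KO replicates 1 to 3, against 1.39, 1.61 and 1.39% in WT replicates 1 to 3. KO replicate 2 and WT overlapped, and KO replicate 3 was 1 rank below KO replicate 1 and close to WT replicate 2. The means were 1.91 ± 0.651% in KO and 1.47 ± 0.129% in WT (SD, n = 3 each). A two-sided exact permutation test over the 6 samples gave p = 0.2, where the smallest p that 3 against 3 samples allow is 0.1. The difference in means was 0.441 percentage points, and 0.0691 without KO replicate 1. In bulk samples, more mitochondrial RNA per cell and a larger proportion of cells rich in it cannot be told apart.

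None of the 10 mRNAs passed the test between genotypes, although all 10 log2 fold changes were above 0. The edgeR quasi-likelihood test, adjusted over 12768 genes by Benjamini-Hochberg, called 0.674% of genes at an adjusted p under 0.05, 0.454% as higher in KO, and 0 of the 10 mtDNA-encoded mRNAs. Their adjusted p ran from 0.198 to 0.69, and their log2 fold changes from 0.16 to 0.63, with a median of 0.38 beside -0.0029 over all tested genes. An unadjusted p under 0.05 was reached by 2 of the 10, mt-Nd2 and mt-Nd3, and by 15.1% of tested genes. DESeq2 called 0 of the 10 as well. Without KO replicate 1 the median of the 10 was 0.10, and 0 of 10 were called, with 0.641% of genes called.

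**Figure D1:**
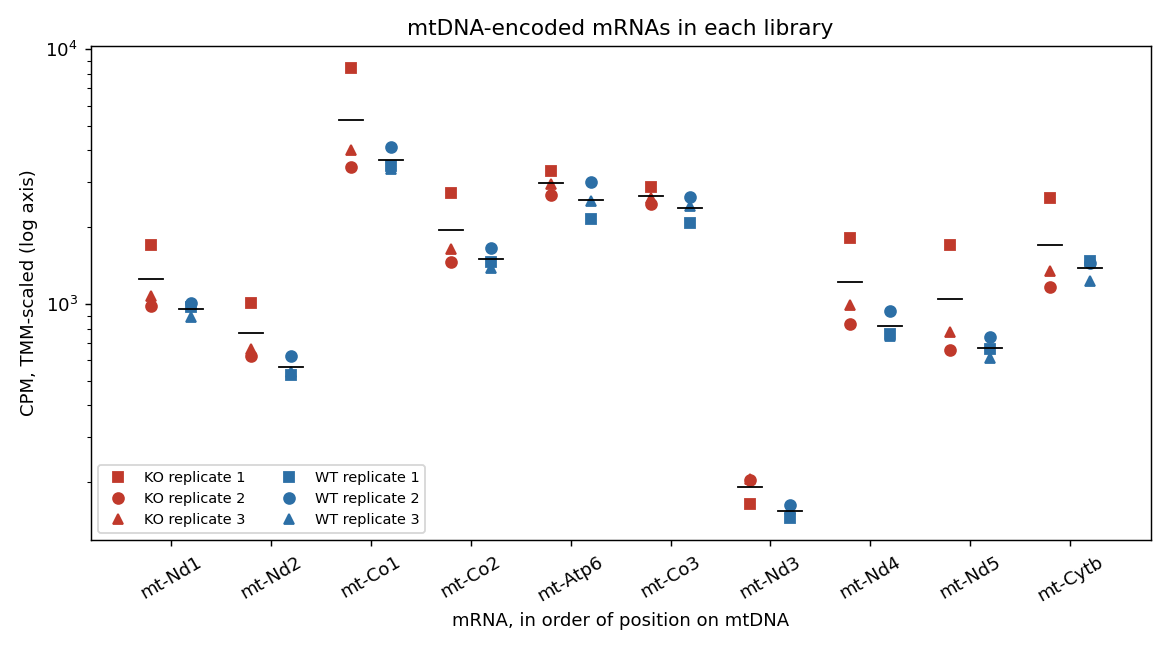
Level of each mtDNA-encoded mRNA in CPM on a log axis, with the mRNAs in their order on mtDNA, KO libraries in red left of WT libraries in blue, a symbol per replicate and a bar at each group mean. KO replicate 1, the red square, is the highest library for 9 of the 10 mRNAs and the lowest KO library for mt-Nd3.

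Complex I, the NADH dehydrogenase, takes 5 of its membrane subunits from these mRNAs, and 4 of the 5 were highest in KO replicate 1. mt-Nd1 encodes the subunit beside the ubiquinone site, and it had 1708, 977 and 1075 CPM in KO replicates 1 to 3, against 976, 1010 and 889 CPM in WT replicates 1 to 3. The lowest KO library lay inside the WT range, and the log2 fold change of mt-Nd1 was 0.39 (SE 0.21, edgeR adjusted p = 0.434). mt-Nd2, a subunit of the proton-pumping arm, had 1008, 623 and 668 CPM in KO, against 527, 624 and 539 CPM in WT. KO replicate 2 was just below WT replicate 2, and KO replicates 1 and 3 were above all WT libraries. In TPM mt-Nd2 had 1693, 1040 and 1115 in KO, against 890, 1029 and 913 in WT, with no overlap by a small margin. In that unit mt-Nd3 did not overlap either. The share of all genes without overlap was counted in CPM only, so none stands beside these TPM values. The log2 fold change of mt-Nd2 was 0.44 (SE 0.18, edgeR adjusted p = 0.324).

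The mt-Nd4 and mt-Nd5 mRNAs encode antiporter-like subunits of the pumping arm. mt-Nd4 had 1821, 836 and 992 CPM in KO replicates 1 to 3, against 764, 936 and 751 CPM in WT replicates 1 to 3. mt-Nd5 had 1700, 659 and 778 CPM in KO, against 666, 743 and 611 CPM in WT. For both mRNAs KO replicate 1 was far above the other 5 libraries, KO replicate 3 was just above all WT libraries, and KO replicate 2 lay inside the WT range. The mt-Nd5 log2 fold change of 0.63 was the largest of the 10 and had the widest interval (SE 0.36, 95% interval -0.25 to 1.52, edgeR adjusted p = 0.468). That of mt-Nd4 was 0.57 (SE 0.30, edgeR adjusted p = 0.428).

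The mt-Nd3 mRNA, which encodes a small subunit at the hinge between the arms of complex I, was the 1 that was not highest in KO replicate 1. It had 164, 203 and 206 CPM in KO replicates 1 to 3, against 145, 162 and 157 CPM in WT replicates 1 to 3. KO replicate 1 was the lowest KO library, and every KO library was above every WT library. The means were 191 ± 23.3 CPM in KO and 155 ± 9.15 CPM in WT (SD, n = 3 each). In CPM it was the 1 member of 10 with no overlap between the groups, where 22.8% of tested genes had no overlap and 11.9% had KO above WT. The log2 fold change of mt-Nd3 was 0.31 (SE 0.09, 95% interval 0.09 to 0.52), with an edgeR adjusted p of 0.198. Without KO replicate 1 it was 0.41 (SE 0.06, edgeR adjusted p = 0.052). With both replicates numbered 1 left out, a setting chosen after the data were seen, it was 0.36 (SE 0.04, edgeR adjusted p = 0.00435), where 4.21% of genes were called.

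Complex III has a single mtDNA-encoded subunit, cytochrome b, which carries its quinone sites. mt-Cytb had 2601, 1167 and 1343 CPM in KO replicates 1 to 3, against 1468, 1449 and 1233 CPM in WT replicates 1 to 3. KO replicate 1 was above and KO replicate 2 below every WT library. The log2 fold change of mt-Cytb was 0.30 (SE 0.31, edgeR adjusted p = 0.69) and turned to -0.14 (SE 0.09, adjusted p = 0.617) without KO replicate 1.

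Complex IV, cytochrome c oxidase, is built around 3 mtDNA-encoded subunits, of which mt-Co1 and mt-Co2 hold the haem and copper centres. mt-Co1 had 8389, 3441 and 4026 CPM in KO replicates 1 to 3, against 3488, 4135 and 3387 CPM in WT replicates 1 to 3. mt-Co2 had 2732, 1454 and 1645 CPM in KO, against 1466, 1652 and 1384 CPM in WT. KO replicates 2 and 3 lay inside the WT range for both. The log2 fold changes were 0.53 (SE 0.34) for mt-Co1 and 0.37 (SE 0.24) for mt-Co2, with edgeR adjusted p of 0.523 and 0.508. mt-Co3, the third core subunit, varied less: it had 2879, 2473 and 2613 CPM in KO, against 2072, 2635 and 2425 CPM in WT. The mt-Co3 log2 fold change of 0.16 (SE 0.10, adjusted p = 0.473) was the smallest of the 10.

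Complex V, the ATP synthase, takes its proton-channel subunit a from mt-Atp6. It had 3333, 2683 and 2948 CPM in KO replicates 1 to 3, against 2158, 2993 and 2536 CPM in WT replicates 1 to 3. WT replicate 1 was the lowest library and KO replicate 1 the highest, and the others were mixed. The log2 fold change of mt-Atp6 was 0.22 (SE 0.13, edgeR adjusted p = 0.462).

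**Figure D2:**
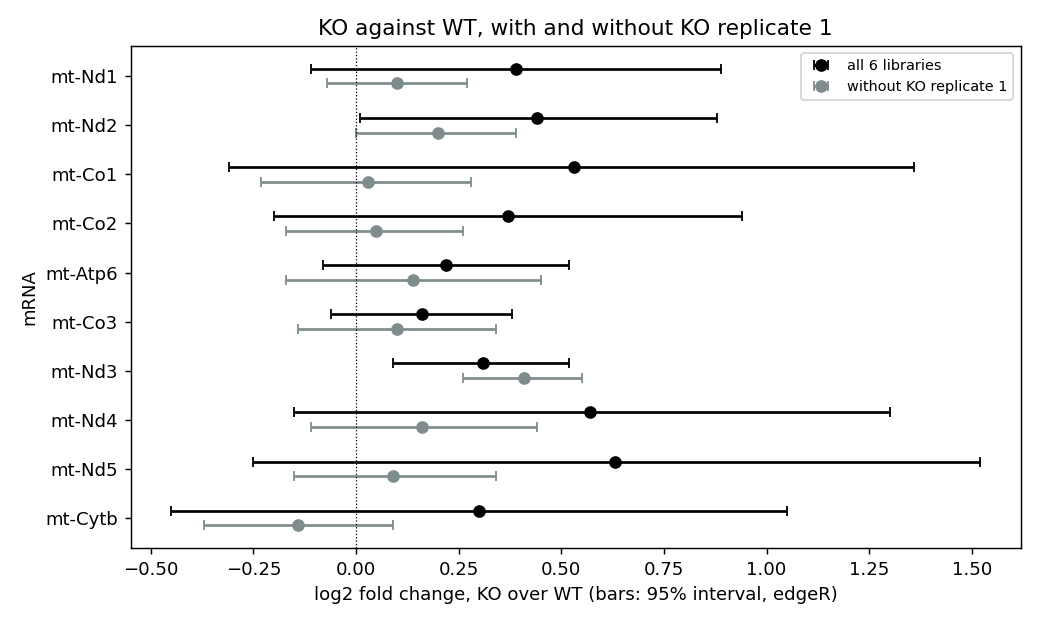
Log2 fold change of KO over WT for each mtDNA-encoded mRNA with its 95% interval, from edgeR with all 6 libraries in black and without KO replicate 1 in grey. Without that library the intervals narrow for the mRNAs other than mt-Co3 and mt-Atp6, 8 of the values move towards 0, mt-Cytb crosses it to -0.14, and mt-Nd3 moves up to 0.41.

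KO replicate 1 did not differ by the same factor across the 10 mRNAs. Its CPM was 2.37 times the mean of KO replicates 2 and 3 for mt-Nd5, 2.25 times for mt-Co1, 2.07 times for mt-Cytb and 1.99 times for mt-Nd4. The factor was 1.76 for mt-Co2, 1.66 for mt-Nd1 and 1.56 for mt-Nd2, and it was 1.18 for mt-Atp6, 1.13 for mt-Co3 and 0.803 for mt-Nd3. The last 3 lie side by side on mtDNA, and mt-Nd5 and mt-Co1, the longest of the 10, had the largest factors. By ending, the single T of mt-Co3, mt-Nd4 and mt-Cytb went with 1.13, 1.99 and 2.07, and the TAA of mt-Nd3 and mt-Nd5 with 0.803 and 2.37. The TAA of mt-Co1, mt-Co2 and mt-Atp6 went with 2.25, 1.76 and 1.18, and the TAG of mt-Nd1 and mt-Nd2 with 1.66 and 1.56. A part of the ending in these factors was not tested. Across the 10 genes, which share the same libraries and are not independent replicates, the log2 of this ratio had a Pearson r of 0.87 and a Spearman rho of 0.88 with annotated length, 0.11 and 0.26 with position and 0.60 and 0.44 with GC content. The log2 fold change of KO over WT, which contains this library, had an r of 0.80 and a rho of 0.75 with length over the same 10 genes. The mtDNA-encoded genes outside the 10 did not all follow length. Their factors were 0.712 for mt-Atp8 (204 bases), 2.03 for mt-Nd4l (297 bases) and 2.30 for mt-Nd6 (519 bases). Protein-coding nuclear genes grouped by length had medians close to 0: the median log2 ratio was 0.04 over 107 genes under 500 bases, -0.01 over 976 genes from 500 to 1000 bases and -0.02 over 1783 genes from 1500 to 2000 bases.

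**Figure D3:**
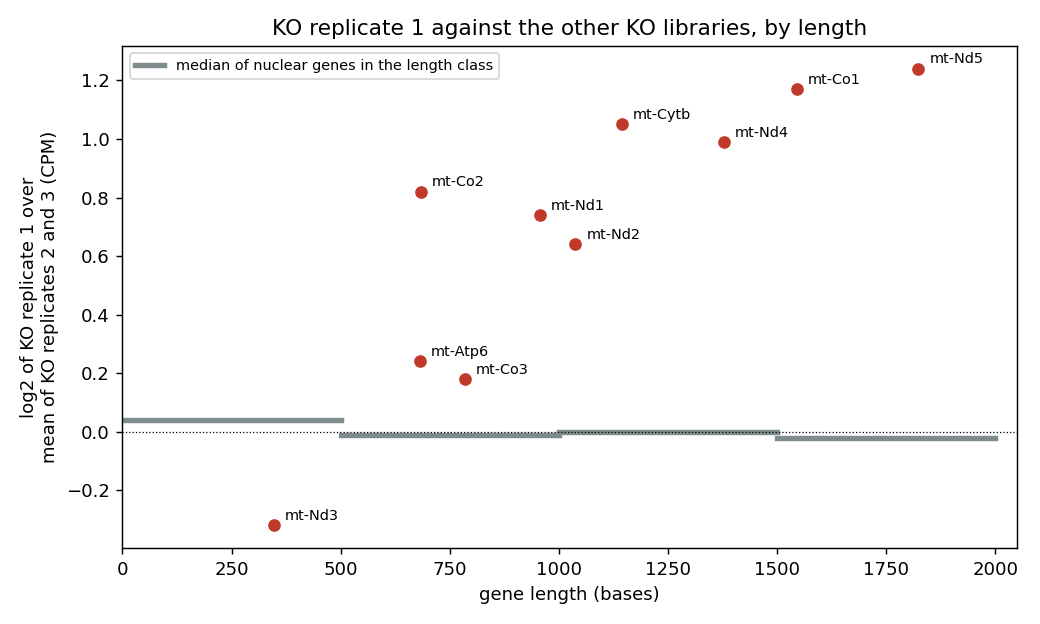
Log2 ratio of KO replicate 1 to the mean of KO replicates 2 and 3, in CPM, against gene length in bases, for the 10 mtDNA-encoded mRNAs (red points), with the median of nuclear protein-coding genes in each length class (grey lines). The red points run from -0.32 for mt-Nd3 to 1.24 for mt-Nd5, and the grey lines stay between -0.02 and 0.04.

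WT replicate 1 was lowest relative to its group for 2 of these neighbouring mRNAs, with less difference for the others. Its CPM was 0.780 times the mean of WT replicates 2 and 3 for mt-Atp6 and 0.819 times for mt-Co3, against a range from 0.905 times for mt-Nd3 to 1.10 times for mt-Cytb among the remaining 8. Together, mt-Atp6, mt-Co3 and mt-Nd3 made up 35.1, 49.1 and 47.6% of the TPM of the 10 mRNAs in KO replicates 1 to 3, against 43.4, 47.5 and 48.8% in WT replicates 1 to 3. TPM are counts scaled by gene length and library. The lowest shares were in the libraries numbered 1 of each group. This trio was chosen after its values were seen, and its share is given as a description.

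Per length, the 10 mRNAs kept nearly the same order in every library outside KO replicate 1. In KO replicate 3 and in all WT libraries the order was mt-Atp6, mt-Co3, mt-Co1, mt-Co2, mt-Cytb, mt-Nd1, mt-Nd4, mt-Nd2, mt-Nd3 and mt-Nd5. KO replicate 2 differed in placing mt-Nd1 above mt-Cytb. In KO replicate 1 mt-Co1 came first and mt-Nd3 last. Mean levels over the 6 libraries ran from 7081 ± 1020 TPM for mt-Atp6 to 819 ± 398 TPM for mt-Nd5 (SD, n = 6). For some neighbours in this order the means differed by less than the larger SD: mt-Co3 at 5578 ± 579 TPM and mt-Co1 at 5039 ± 2190 TPM, mt-Co1 and mt-Co2 at 4377 ± 1290 TPM, mt-Cytb at 2346 ± 811 TPM and mt-Nd1 at 2009 ± 549 TPM, mt-Nd4 at 1282 ± 512 TPM and mt-Nd2 at 1113 ± 296 TPM, mt-Nd2 and mt-Nd3 at 864 ± 125 TPM, and mt-Nd3 and mt-Nd5. Within each of the 6 libraries, mt-Co1 was nonetheless above mt-Co2, mt-Nd4 above mt-Nd2 and mt-Nd2 above mt-Nd3. The highest mRNA was 8.68 to 11.5 times the lowest within a library.

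Which mRNA separated the genotypes as a share of the 10 depended on the unit. In TPM it was mt-Nd2 alone, by little. It made up 3.77, 3.84 and 3.71% in KO replicates 1 to 3, against 3.54, 3.47 and 3.49% in WT replicates 1 to 3 (exact permutation p = 0.1, the smallest possible, and 0.857 after Benjamini-Hochberg adjustment over the 10). As a share of their counts mt-Nd2 overlapped, at 3.83 to 4.29% in KO and 3.82 to 3.88% in WT, and mt-Nd4 alone did not. The mt-Nd4 share of counts was 6.91, 5.76 and 6.09% in KO replicates 1 to 3, against 5.56, 5.73 and 5.40% in WT replicates 1 to 3 (exact permutation p = 0.1, and 1.0 after adjustment over the 10). The share of mt-Co1 was 21.1% of TPM in KO replicate 1 and 14.2 to 15.7% in the other 5 libraries. The share of mt-Nd3 was 1.84% in KO replicate 1, 3.73 and 3.42% in KO replicates 2 and 3, and 2.69 to 3.03% in WT.

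The other 3 mtDNA-encoded genes in the tables overlap the 10, so a read in the shared bases may be assigned to either gene. The counts of these 3 were whole in every library, so no fractional split of reads was seen. mt-Nd4l shares its mRNA with mt-Nd4 and overlaps it by 7 bases. Its TPM stood in a narrow ratio to that of mt-Nd4, at 0.605, 0.584 and 0.603 in KO replicates 1 to 3 and 0.607, 0.638 and 0.628 in WT replicates 1 to 3. Every KO library was below every WT library, by a small margin (exact permutation p = 0.1, the smallest possible). How many other gene pairs separate in this way was not counted. mt-Atp8 shares its mRNA with mt-Atp6 and overlaps it by 43 of its 204 bases, yet its ratio to mt-Atp6 was 0.280, 0.455 and 0.475 in KO and 0.195, 0.330 and 0.312 in WT. The lowest ratio in each group was again in the library numbered 1. mt-Atp8 had 280, 366 and 419 CPM in KO, against 126, 296 and 237 CPM in WT (log2 fold change 0.69, SE 0.32, edgeR adjusted p = 0.385). mt-Nd6, on the minus strand, had 557, 223 and 262 CPM in KO, against 202, 242 and 200 CPM in WT, the pattern of mt-Nd5. Whether counting used strand is not given in the sources used here, so mt-Nd6 reads cannot be told apart from antisense RNA of that stretch.

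Complexes I, III, IV and V combine subunits of both genomes, and the ratio of their summed TPM, mtDNA-encoded over nuclear-encoded, was highest in KO replicate 1 for each. For complex I it was 1.96, 1.12 and 1.24 in KO replicates 1 to 3, against 0.960, 1.14 and 0.996 in WT replicates 1 to 3. For complex III it was 1.95, 0.843 and 0.981 in KO, against 0.999, 1.05 and 0.890 in WT. For complex IV it was 6.19, 3.42 and 3.85 in KO, against 3.02, 3.87 and 3.35 in WT. The groups overlapped for all 3, as they did for complex V, where KO had 1.44, 1.10 and 1.21 and WT 0.841, 1.24 and 1.05. The exact permutation p on the log2 ratio was 0.2 for complex I, 0.9 for complex III and 0.3 for complexes IV and V. The log2 difference was 0.436 for complex I, 0.265 for complex III, 0.353 for complex IV and 0.272 for complex V, and without KO replicate 1 it was 0.189, -0.102, 0.0970 and 0.167. Summed nuclear subunits were nearly level, for complex I at 4874 to 4924 TPM in KO and 4807 to 5224 TPM in WT over 37 genes.

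**Figure D4:**
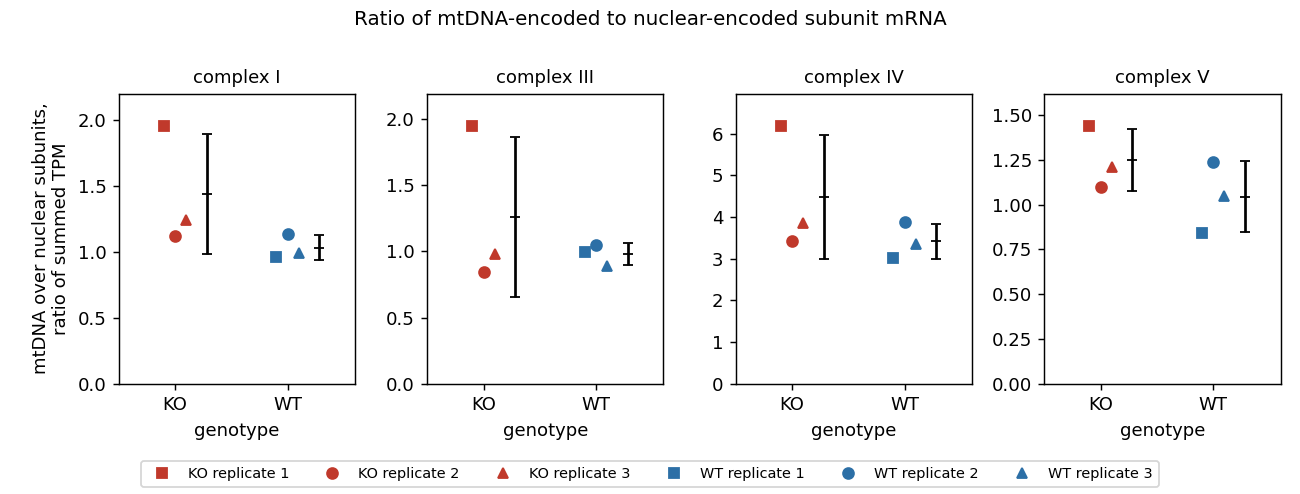
Ratio of summed TPM of mtDNA-encoded to nuclear-encoded subunits for complexes I, III, IV and V, each axis from 0, with KO left of WT, a point per library and the group mean with SD (n = 3) beside the points. KO replicate 1 is the highest point in each panel, at 1.96, 1.95, 6.19 and 1.44, and KO replicates 2 and 3 lie among or close to the WT libraries.

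Nuclear partners of the mtDNA-encoded subunits were close to level between genotypes. Of 37 tested nuclear subunits of complex I, 9 of complex III, 11 of complex IV and 15 of complex V, 0 were called in either direction, at 0.674% called among all genes, with median log2 fold changes of -0.03, -0.06, -0.04 and -0.04. The smallest p in these lists belonged to Ndufb10 and Ndufa13 of complex I (0.15 and -0.13), Uqcr10 and Uqcrq of complex III (-0.16 and -0.15), Cox7a2 and Ndufa4 of complex IV (-0.10 and -0.14) and Atp5j2 and Atp5d of complex V (-0.12 and -0.11), with edgeR adjusted p from 0.265 to 0.464. In complex II, which has no mtDNA-encoded subunit, Sdhb fell (log2 fold change -0.34, SE 0.05, edgeR adjusted p = 0.0292), the 1 call among its 4 subunits. Its adjusted p was 0.0805 to 0.155 when KO replicate 2, KO replicate 3, WT replicate 2 or WT replicate 3 was left out, at a log2 fold change of -0.35 to -0.32.

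The nuclear genes that copy mtDNA, transcribe it and process its RNA did not pass either. Of 11 tested genes of mtDNA replication, 11 of mitochondrial transcription and 24 of RNA processing, stability and decay, 0 rose and 0 fell, at 0.674% called among all genes, and their median log2 fold changes were -0.04, -0.01 and 0.00. Tfam, which packages mtDNA and starts its transcription, had 61.3, 65.8 and 66.7 CPM in KO replicates 1 to 3, against 69.2, 59.5 and 66.5 CPM in WT replicates 1 to 3 (log2 fold change -0.01, SE 0.07, edgeR adjusted p = 0.959). Polrmt, the mitochondrial RNA polymerase, had 39.7, 37.4 and 37.1 CPM in KO, against 41.3, 39.8 and 37.1 CPM in WT (-0.05, SE 0.06, adjusted p = 0.748). Lrpprc, which with Slirp stabilises mitochondrial mRNAs, had 96.2, 103 and 101 CPM in KO, against 112, 96.7 and 101 CPM in WT (-0.05, SE 0.07, adjusted p = 0.775). In none of these 3 was KO replicate 1 the highest library.

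The smallest p in the list of replication genes belonged to Polg2, the accessory subunit of the mtDNA polymerase, at a log2 fold change of 0.27 (SE 0.15, edgeR adjusted p = 0.459), and to Twnk, the mtDNA helicase, at -0.06 (SE 0.05, adjusted p = 0.631). In the transcription list it belonged to Tfb1m at 0.18 (SE 0.10, adjusted p = 0.444) and Mterf1b at 0.46 (SE 0.26, adjusted p = 0.459). In the processing list it belonged to Hsd17b10, a subunit of the enzyme that cuts tRNA 5′ ends, at 0.15 (SE 0.08, adjusted p = 0.432) and Mtpap, the mitochondrial poly(A) polymerase, at 0.10 (SE 0.06, adjusted p = 0.492). Of 13 immediate early and heat shock genes, which respond to cell handling, 0 were called, at 0.674% among all genes, with a median of -0.12. The smallest p belonged to the transcription factor genes Jun, at 0.26 (SE 0.09, edgeR adjusted p = 0.232), and Fos, at 0.42 (SE 0.16, adjusted p = 0.274). Both had every KO library above every WT library, as 11.9% of tested genes did. The groups did not overlap for 7 of the 13, 3 of them with KO above WT, and for 22.8% of tested genes. Hspa1a, Hsph1, Dnajb1 and Hspa8 had every KO library below every WT library. Fos had 5.03, 3.79 and 4.37 CPM in KO replicates 1 to 3, against 3.05 to 3.50 CPM in WT. The summed level of the list, most of it the chaperone gene Hspa8 (3227 CPM in KO replicate 1), was lowest in KO replicate 1, with 4958 CPM in that library, 5561 to 5691 CPM in KO replicates 2 and 3 and 5716 to 5951 CPM in WT.

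Among 7790 nuclear protein-coding genes, those whose profile over the 6 libraries lay closest to the summed mtDNA-encoded mRNAs were Zfp950, Ifng, Or13a18, Ctsd and Kmt2c. The root mean square difference between centred log2 CPM profiles was 0.0866 to 0.117 for them. Zfp950, which had the smallest difference, had 26.4, 17.4 and 18.9 CPM in KO replicates 1 to 3, against at most 18.8 CPM in WT. By the same measure the members ranged from 0.0350 for mt-Co2 to 0.370 for mt-Nd3, and 6 of the 10, mt-Nd3, mt-Co3, mt-Atp6, mt-Nd5, mt-Cytb and mt-Co1, lay farther from the sum than these 5 nuclear genes. Ifng, the interferon-gamma cytokine, had 43.9 CPM in KO replicate 1 and 27.7 CPM in the lowest KO library, against 21.6 to 28.9 CPM in WT, and Ctsd, a lysosomal protease that macrophages express strongly, had 324, 233 and 224 CPM in KO, against 199, 228 and 200 CPM in WT. The summed neutrophil, monocyte and dendritic cell markers were also highest in KO replicate 1, as were 9 of the 10 mtDNA-encoded mRNAs. The part of these markers and of the B cell and CD8 T cell markers in the mtDNA-encoded levels was not tested. KO replicate 1 was also the only library with more than traces of Y-linked RNA (253 CPM, against at most 1.25 CPM elsewhere). The part of sex or of the source of the cells in its mtDNA-encoded levels was not tested either.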

How the data were processed

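Per the labels, total RNA of sorted cells was made into libraries with a SMARTER mRNA-Seq kit. The submitters' processing notes name FastQC and HISAT2 without versions. The counter, genome build, annotation and use of strand are not stated in the sources used here. The authors deposited, for each sample, 1 table of estimated counts per gene, which need not be whole and are not scaled, and 1 table of TPM, which the authors scaled by gene length and library. The gene lengths implied by the deposited TPM and counts matched GENCODE M21 for the 13 mtDNA-encoded genes, and the counts of the 10 followed here were whole in every library.

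Estimated counts were rounded to whole numbers and tested with edgeR 4.0.16 (R 4.3.3) by its robust quasi-likelihood F test with TMM scaling and the default filterByExpr filter, which kept 12768 genes and left out 9131. P-values were adjusted by Benjamini-Hochberg over all tested genes, two-sided, with a threshold of 0.05. Single values (shares and ratios) had a two-sided exact permutation test over the 6 samples. DESeq2 1.42.0 and limma 3.58.1 on log2(TPM + 1) and log2(TPM + 0.1) were alternatives, with other scalings and filters, a replicate block and each library left out.

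The 10 mRNAs and the gene lists were chosen with earlier results of these data known. All 10 are named with their values, and so are the other mtDNA-encoded genes. In each pathway list the genes past the threshold are named, up to 4, and where none passed the 2 of smallest p; Tfam, Polrmt and Lrpprc are always named, with Dlst and Foxp3 as checks. The genes of most similar profile are the 5 nuclear protein-coding genes whose log2 CPM profile had the smallest root mean square difference from the summed mRNAs, among those averaging 4 or more. Il2ra, Ikzf2, Cd4, Hspa8, Hspa1a, Hsph1, Dnajb1, Ddx3y, Retnlg, C1qa, C1qb, Mmp8, Mrc1 and Itgax were named after their values were seen. With 3 samples a group, the precision is limited by the spread between samples, not by depth, since each of the 10 mRNAs had 5207 to 420346 counts in every library.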

Additional observations from a re-analysis of the deposited data

How the results depend on the processing

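Of the 10 mRNAs, 0 were called under each of 17 other settings of the fit, and 1, mt-Nd3 (0.36), without both replicates numbered 1, a setting chosen after seeing the data. The mt-Cytb log2 fold change turned to -0.14 without KO replicate 1 and to -0.10 without both replicates 1 (0.51 at most, without KO replicate 2), and mt-Co1 to -0.01 without both (0.76 at most). The other 8 kept their sign in all 18 settings. Dlst (-0.26, not called by edgeR) was called by DESeq2 (-0.26) and without both replicates 1 (-0.21, adjusted p = 0.0323). The count of called genes depended on the setting: 86 with all libraries, 527 by DESeq2, 133 without the filter on low counts, 8 with KO replicates 2 and 3 summed, 49 by limma on log2(TPM + 1), 45 with TPM rescaled over nuclear genes, and 538 without both replicates 1. It ran from 4 to 93 when 1 library was left out, with 4 without KO replicate 3, 10 without KO replicate 2, 16 without WT replicate 3 and 27 without WT replicate 2; the cause was not tested. With the replicate number as a block it was 177, and 0 of the 10 were called. Same-numbered libraries had correlations of deviations from the group mean of 0.184, 0.078 and 0.084, and KO replicate 3 correlated best with WT replicate 2 (0.112). Replicates 1 had correlations of -0.145 to -0.10 with replicates 2 and 3 of the other group. With 3 libraries a group, and the replicates 1 apart, these values cannot decide whether the numbers are pairs. The main fit used genotype only.

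Differences in the share of the summed TPM changed sign for 7 of the 10, in percentage points. They ran, with 1 library left out, from -0.0268 to 0.479 for mt-Nd1 (lowest without WT replicate 2), -0.245 to 0.701 for mt-Nd3 (negative without KO replicate 2 and, at -0.0907, without KO replicate 3), -1.19 to 0.0989 for mt-Cytb (positive without WT replicate 1), -0.67 to 2.75 for mt-Co1, -0.43 to 0.554 for mt-Co2, -2.79 to 0.166 for mt-Co3 and -2.17 to 0.921 for mt-Atp6. The sign changes of the last 4 came without KO replicate 1, and for mt-Co2 also without WT replicate 3 (-0.116) and as a share of counts (-0.0851). The complex III ratio ran from -0.102, without KO replicate 1, to 0.504. Each p from a permutation of 3 against 3 samples could not pass 0.05, so these changes say nothing of a call.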
